A study of Mus musculus with 6 samples.

Results

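Mitochondrial DNA is a small circular genome that encodes core subunits of the respiratory chain, together with the ribosomal and transfer RNAs needed to translate them inside the organelle. All 37 rows that the deposited tables place on chromosome MT were taken as members, of 26699 gene rows in all. They comprised 13 mRNA genes, 2 rRNA genes and 22 tRNA genes. The cells were primary mouse bone marrow macrophages, from mice aged 8 weeks, that were expanded with 10 ng/mL of the growth factor M-CSF and then held for 48 h in 50 ng/mL RANKL and 30 ng/mL M-CSF, which starts the formation of osteoclasts, the cells that resorb bone. The conditional knockout cells (cKO) carried LysmCre, a recombinase driven by the lysozyme M locus of myeloid cells, and both Slc11a2 alleles floxed. Control cells were Slc11a2flox/flox without Cre, so that an effect of Cre itself cannot be told apart from an effect of Slc11a2 deletion. Each genotype had 3 libraries of oligo(dT)-selected RNA, and the labels do not say whether the 3 came from separate animals or cultures, so a p-value here speaks of the spread among libraries, part of which may be technical.

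Slc11a2 encodes DMT1, which carries ferrous iron across membranes, and several respiratory chain proteins hold iron as heme or as iron-sulfur clusters. Both strands of mitochondrial DNA are transcribed as long precursors, and the tRNAs that lie between most genes are cut out to release the mRNAs and rRNAs. Most mitochondrial mRNAs then receive a poly(A) tail, which in several of them completes the stop codon. Osteoclasts are known as cells rich in mitochondria.

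Between 49720701 and 57797282 reads were counted per library, and levels are given in CPM (reads scaled to a common library total after TMM) or in FPKM (also per gene length) for comparison between genes. Errors beside log2 fold changes are standard errors of the edgeR fit. Slc11a2 itself stood at 78.3, 82.8 and 87.4 CPM in cKO replicates 1 to 3, against 118, 110 and 118 CPM in control replicates 1 to 3, and its log2 change of -0.48 ± 0.06 had an edgeR quasi-likelihood adjusted p of 0.00219. Macrophage markers summed to 6216 to 6724 CPM in cKO and 6429 to 6944 CPM in control libraries, and osteoclast markers to 8531 to 12207 CPM in cKO and 11782 to 15302 CPM in control. The 5 erythroid, 2 B cell and 2 T cell markers with a row summed to at most 1.31, 1.03 and 3.41 CPM in any library. Stroma markers summed to 3033 to 4894 CPM in cKO and 3252 to 3803 in control, and endothelial markers to 4.95 to 5.77 in cKO and 4.69 to 5.75 in control. Neutrophil markers, 7 of 8 with a row, were low but their sums did not overlap, at 47.0 to 60.4 CPM in cKO and 20.5 to 25.6 in control. Of the 6 tested, 5 had a positive log2 fold change, 4 of them called higher by edgeR, against 1.36% of all genes tested, and 1 a negative (-0.82, not called). Mpo had 32, 28 and 16 reads in cKO replicates 1 to 3, against 19, 57 and 67 in control. Elane had 0, 10 and 4 against 0, 45 and 7, and Camp was at 0 reads in control replicate 1. Member by member, all 10 osteoclast markers had a negative log2 fold change (median -0.39, 3 at an unadjusted p under 0.05, 0 called by edgeR or DESeq2). All 5 stroma markers had a positive one (median 0.42, 1 at an unadjusted p under 0.05, 0 called by edgeR and 1 by DESeq2). Of all genes tested, 49.6% had a negative log2 fold change and 17.2% stood at an unadjusted edgeR p under 0.05. DESeq2 called 3.09% of its genes higher. The part of these neutrophil, osteoclast and stroma values in the results below was not tested.

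Mitochondrial rows took overlapping shares of all reads in the genotypes. Their share was 3.92%, 3.47% and 3.71% in cKO replicates 1 to 3, with a mean of 3.70 ± 0.225% (SD, n = 3), against 3.69%, 3.71% and 4.13% in control replicates 1 to 3, with a mean of 3.84 ± 0.249%. The genotypes overlapped, because the highest cKO library lay above 2 of the 3 control libraries. Of the mitochondrial reads nearly all fell on mRNAs: rRNAs held 0.0577% to 0.0755% of all reads in cKO and 0.0686% to 0.0783% in control libraries, and tRNAs 0.0105% to 0.0133% in cKO and 0.0115% to 0.0130% in control. The libraries were selected for poly(A), so these rows count what the selection kept of each RNA class. Among the 13 mRNAs control replicate 3 was the highest control library for all 13, cKO replicate 1 was the highest cKO library for 10 and cKO replicate 2 the lowest for 11, so that the mRNAs shifted largely as a block between libraries of the same genotype.

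Of the 36 members that passed the filter on low counts, 1 was called lower in cKO cells at an adjusted p below 0.05 and 0 were called higher by edgeR, where 2.42% of the 16843 genes tested were called, 1.06% lower and 1.36% higher. DESeq2 called 2 members lower and 0 higher, against 6.29% of its genes called, 3.19% lower and 3.09% higher. At an unadjusted edgeR p under 0.05 stood 4 members (mt-Co3, mt-Rnr1, mt-Ts1 and mt-Nd3), against 17.2% of all genes tested. Every cKO library lay below every control library for 7 members, against 11.4% of all genes tested, and above for 2 members, against 11.1%. The members are cut from shared precursors and counted in the same libraries, so they are not independent of each other. Of the 13 mRNAs, 10 had a negative log2 fold change, as did 49.6% of all genes tested, and 3 a positive, with a median of -0.03, while the median over all genes tested was 0.0015; 3 alternative settings that left no library out put the signs of several mRNAs near 0 the other way, as given with the processing. In bulk RNA, fewer cells of a type and less RNA per cell cannot be told apart.

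Per length, mt-Co1 stood highest among the mRNAs and mt-Nd3 lowest. The mean was 7397 ± 112 FPKM in cKO and 8108 ± 395 FPKM in control cells for mt-Co1 (SD, n = 3 each), followed by mt-Atp8 at 5895 ± 676 and 5583 ± 679 FPKM. A group of 3 genes came next without separation beyond their spread: mt-Co2 at 2986 ± 163 and 3125 ± 231, mt-Atp6 at 2945 ± 182 and 2966 ± 323, and mt-Cytb at 2865 ± 121 and 3069 ± 200 FPKM, in cKO and control. In descending order of cKO means, mt-Nd1, mt-Nd5, mt-Co3, mt-Nd4l, mt-Nd4, mt-Nd2 and mt-Nd6 followed, and last mt-Nd3 at 237 ± 10.7 FPKM in cKO and 268 ± 12.4 FPKM in control cells, although its gene lies between those of mt-Co3 and mt-Nd4l on the same strand. The rRNAs mt-Rnr2 and mt-Rnr1 stood at a like level, at 274 ± 43.1 and 146 ± 13.4 FPKM in cKO and 295 ± 21.2 and 180 ± 10.7 FPKM in control.

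**Figure D1:**
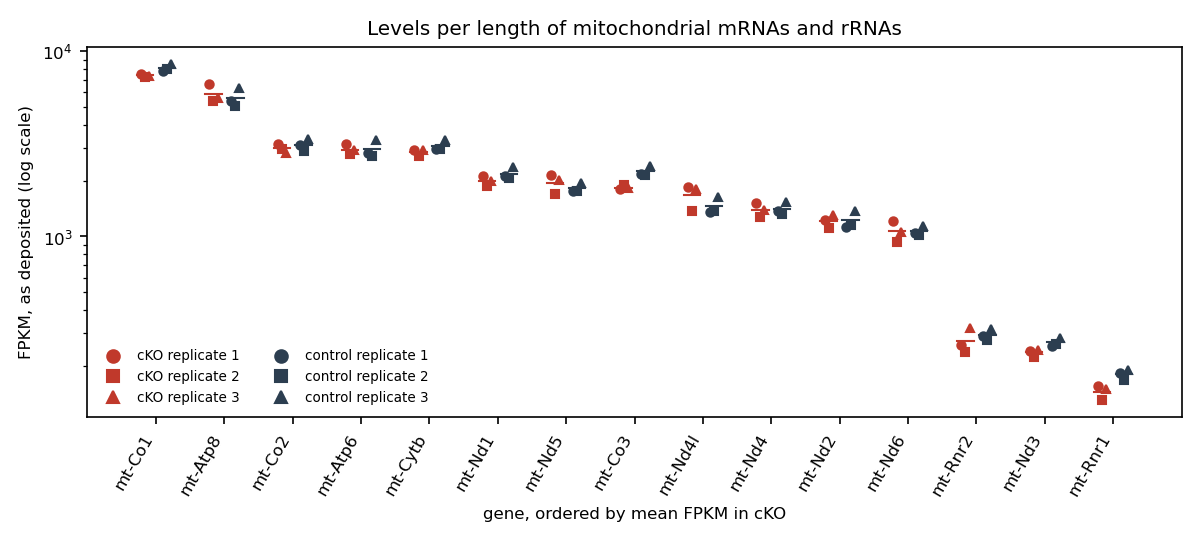
Deposited FPKM (log scale) of the 13 mRNAs and 2 rRNAs of mitochondrial DNA in each library, cKO left of control in each pair, with a line at the mean of 3 libraries. mt-Co1 lies on top at 7288 to 7511 FPKM in cKO and 7783 to 8547 in control, while mt-Rnr2, mt-Nd3 and mt-Rnr1 lie at the bottom.

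The member that was called, mt-Co3, encodes the third core subunit of cytochrome c oxidase (complex IV), which is embedded in the inner membrane and holds no metal centre of its own. Its gene (ENSMUSG00000064358, chromosome MT, 8607 to 9390, plus strand, GRCm38) ends without a full stop codon. Bases 635 to 784 of the GENCODE M21 transcript are printed to show this end, and because all of them but the last recur in a nuclear copy described further on. The capital marks the single base past the last full codon, which the poly(A) tail extends to a stop codon.
mt-Co3: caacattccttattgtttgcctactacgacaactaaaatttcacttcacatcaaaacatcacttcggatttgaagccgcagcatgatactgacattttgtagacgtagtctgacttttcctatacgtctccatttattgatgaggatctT
The gene begins on the last base of mt-Atp6, with no tRNA between them. It stood at 1644, 1677 and 1639 CPM in cKO replicates 1 to 3, against 1980, 1952 and 2179 CPM in control replicates 1 to 3. The cKO libraries lay close together at 1653 ± 21.0 CPM, all of them below the control libraries, which averaged 2037 ± 124 CPM (SD, n = 3 each). The log2 fold change was -0.30 ± 0.06, a change of -18.8%, with an edgeR quasi-likelihood adjusted p of 0.0307. The call was lost with reads scaled to the mitochondrial mRNA pool (-0.21, adjusted p = 0.400), with the trend over gene length removed (-0.18, adjusted p = 0.161) and without any single library other than cKO replicate 3 (adjusted p = 0.0563 to 0.195), while the sign stayed negative under each of the 16 alternatives.

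The share of mt-Co3 in the mitochondrial mRNA pool, which leaves out all rows of nuclear genes, was lower in every cKO library. This describes the same reads on another scale and is no second result. The fit scaled to that pool did not call mt-Co3 (edgeR adjusted p = 0.400). Reads of its nuclear copy, described further on, cannot be told apart from its own. mt-Co3 made up 4.34%, 4.99% and 4.55% of the reads on the 13 mRNAs in cKO replicates 1 to 3, against 5.40%, 5.34% and 5.37% in control replicates 1 to 3. The reads on mt-Co3 relative to those on its neighbour mt-Atp6 were 0.662, 0.782 and 0.717 in cKO and 0.882, 0.907 and 0.834 in control cells. Relative to mt-Co1 they were 0.122, 0.131 and 0.125 in cKO and 0.142, 0.136 and 0.143 in control, and relative to mt-Co2 0.656, 0.727 and 0.737 in cKO and 0.796, 0.852 and 0.826 in control. None of these 3 ratios overlapped between genotypes. They are among 8 read ratios between members that were chosen after values were known and are given as descriptions, with no test. Separation was not particular to mt-Co3. mt-Atp8 over mt-Atp6 and mt-Nd4l over mt-Nd4, given below, did not overlap either. Nor did mt-Nd6 over mt-Nd5, at 0.161, 0.158 and 0.149 in cKO and 0.170, 0.163 and 0.167 in control. Overlap was seen for mt-Rnr1 over mt-Rnr2, given below, and for mt-Nd4 over mt-Nd5 (0.530, 0.570 and 0.517 in cKO, 0.590, 0.566 and 0.594 in control).

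The other mitochondrial genes of complex IV did not pass the test. mt-Co1 (chromosome MT, 5328 to 6872), the catalytic subunit that binds heme and copper where oxygen is reduced, stood at 13486, 12764 and 13136 CPM in cKO and 13959, 14318 and 15204 CPM in control replicates 1 to 3. No cKO library reached a control library, but the log2 change of -0.14 ± 0.07 did not pass the test (adjusted p = 0.299). It alone made up 35.6% to 38.0% of mitochondrial mRNA reads in cKO and 37.5% to 39.2% in control libraries, shares that overlapped. mt-Co2 (7013 to 7696), which carries the copper site that takes electrons from cytochrome c, stood at 2506, 2308 and 2224 CPM in cKO and 2489, 2292 and 2639 CPM in control, at a log2 fold change of -0.08 ± 0.07 (adjusted p = 0.646). Its genotypes overlapped. Summed over the 3 genes, complex IV mRNA was 17635, 16750 and 16999 CPM in cKO and 18428, 18562 and 20022 CPM in control cells, a log2 ratio of means of -0.15, with the genotypes apart. Most of that sum was mt-Co1. The sums of the other complexes with more than 1 mitochondrial gene overlapped. Complex I had means of 11240 CPM in cKO and 11225 in control (log2 ratio 0.0018), and ATP synthase 3687 and 3654 CPM (0.013).

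**Figure D2:**
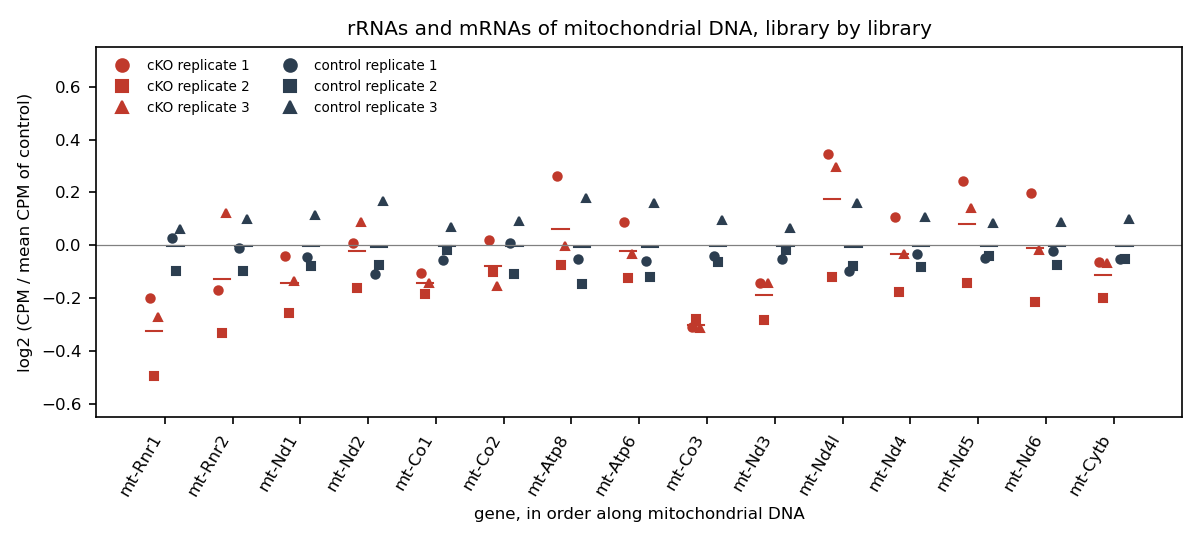
The log2 ratio of CPM to the mean of the control libraries, per library, for the rRNAs and mRNAs in their order along mitochondrial DNA, cKO left of control in each pair and lines at the genotype means. The 3 cKO values of mt-Co3 lie together near its log2 fold change of -0.30, whereas those of mt-Nd4l and mt-Nd5 spread to both sides of 0.

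Among the 7 mitochondrial subunits of complex I, the NADH dehydrogenase that feeds electrons into the chain, 0 were called in either direction (1 at an unadjusted p under 0.05, and 0 by DESeq2). mt-Nd3 (9459 to 9806), a small membrane subunit with a loop near the site where quinone is bound, stood at 97.8, 88.6 and 97.8 CPM in cKO and 104, 107 and 113 CPM in control replicates 1 to 3. All 3 cKO libraries lay below the control libraries, at a log2 fold change of -0.19 ± 0.06 (adjusted p = 0.142), and its share of the mRNA pool was also lower in each, at 0.258%, 0.264% and 0.272% in cKO against 0.284%, 0.292% and 0.278% in control. mt-Nd1 (2751 to 3707), a membrane subunit that lines the quinone channel, stood at 2348, 2024 and 2200 CPM in cKO and 2344, 2287 and 2612 CPM in control, at a log2 fold change of -0.14 ± 0.07 (adjusted p = 0.366). Its CPM overlapped by a narrow margin, whereas its pool share did not, at 6.20%, 6.02% and 6.11% in cKO against 6.39%, 6.26% and 6.44% in control.

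mt-Nd5 (11742 to 13565), the most distal of the proton-pumping subunits and the longest of the genes, stood at 4557, 3488 and 4240 CPM in cKO and 3725, 3743 and 4077 CPM in control. Its CPM overlapped, at a log2 fold change of 0.09 ± 0.09 (adjusted p = 0.672). Its pool share was above every control library, at 12.04%, 10.4% and 11.8% in cKO against 10.2%, 10.2% and 10.0% in control, by a small margin in cKO replicate 2. Pool shares overlapped between genotypes for every mRNA other than mt-Co3, mt-Nd3, mt-Nd1 and mt-Nd5. Shares of the same pool depend on each other, since a lower share of some genes raises that of others. mt-Nd4l (9877 to 10173), a small membrane subunit, had the largest positive log2 fold change of the mRNAs, 0.19 ± 0.13 (adjusted p = 0.511). It stood at 637, 462 and 616 CPM in cKO and 469, 474 and 561 CPM in control, so that cKO replicate 2 lay below all 3 control libraries and the other 2 cKO libraries above them. mt-Nd4l shares 7 bases with mt-Nd4, with which it forms a single mRNA, and the reads on mt-Nd4l relative to mt-Nd4 were 0.264, 0.232 and 0.281 in cKO against 0.213, 0.224 and 0.232 in control, with cKO replicate 2 and control replicate 3 close to each other.

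The remaining subunits of complex I had log2 fold changes near 0. mt-Nd4 (10167 to 11544), a proton-pumping subunit, stood at 2416, 1989 and 2192 CPM in cKO and 2196, 2119 and 2421 CPM in control, and mt-Nd2 (3914 to 4951), another of that kind, at 1475, 1312 and 1558 CPM in cKO and 1361, 1392 and 1648 CPM in control. Their log2 fold changes were -0.03 ± 0.08 and -0.02 ± 0.09 (adjusted p = 0.891 and 0.941), and both overlapped. mt-Nd6 (13552 to 14070) is the only mRNA gene on the minus strand, and its mRNA is rich in G, at 28.1% of its bases against 5.88% to 16.1% in the other 12. It stood at 735, 552 and 634 CPM in cKO and 632, 610 and 682 CPM in control, at a log2 fold change of -0.0014 ± 0.09 (adjusted p = 0.997), so the cKO libraries lay on both sides of the control libraries. It shares 14 bases with the end of mt-Nd5 on the other strand, and reads of the pair there cannot be told apart unless counting used the strand, a setting that the sources used here do not give.

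Complex III, which passes electrons from quinol to cytochrome c, has a single mitochondrial gene, mt-Cytb (14145 to 15288), whose product cytochrome b binds heme. mt-Cytb stood at 3886, 3535 and 3878 CPM in cKO and 3917, 3923 and 4347 CPM in control replicates 1 to 3. The genotypes were apart, yet by less than 1% between the nearest libraries, and the log2 fold change of -0.11 ± 0.07 did not pass (adjusted p = 0.462).

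ATP synthase has 2 mitochondrial genes, which overlap. mt-Atp6 (7927 to 8607) encodes the subunit that forms the proton path beside the rotating ring, and mt-Atp8 (7766 to 7969) a short membrane subunit. The last 43 bases of mt-Atp8, in capitals, are also the start of mt-Atp6.
mt-Atp8: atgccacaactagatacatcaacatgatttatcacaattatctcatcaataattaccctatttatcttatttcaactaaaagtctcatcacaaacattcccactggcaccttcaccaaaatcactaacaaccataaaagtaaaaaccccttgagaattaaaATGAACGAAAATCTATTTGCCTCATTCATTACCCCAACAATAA
mt-Atp6 stood at 2484, 2145 and 2286 CPM in cKO and 2245, 2151 and 2613 CPM in control, and mt-Atp8 at 1581, 1252 and 1315 CPM in cKO and 1271, 1191 and 1490 CPM in control. Both overlapped between genotypes, with log2 fold changes of -0.02 ± 0.08 and 0.07 ± 0.10 (adjusted p = 0.936 and 0.784). The reads on mt-Atp8 relative to mt-Atp6 were 0.636, 0.584 and 0.575 in cKO and 0.566, 0.554 and 0.570 in control, so all cKO libraries were higher, 2 of them by a small margin. Reads in the shared bases belong to both genes, and the sources used here do not say how they were assigned.

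The 2 rRNAs form the small and large subunits of the mitochondrial ribosome. mt-Rnr1 (70 to 1024), the 12S rRNA, stood at 173, 141 and 165 CPM in cKO and 203, 186 and 208 CPM in control. All cKO libraries were below the control libraries, at a log2 fold change of -0.32 ± 0.08, the most negative among mRNAs and rRNAs, and an edgeR adjusted p of 0.0526 that missed the threshold. DESeq2 called it lower (adjusted p = 0.00544), and its adjusted p ranged from 0.00544 to 0.292 over the 16 alternatives. mt-Rnr2 (1094 to 2675), the 16S rRNA, stood at 480, 429 and 587 CPM in cKO and 535, 505 and 578 CPM in control, where cKO replicate 3 was above every other library and the genotypes overlapped (log2 fold change -0.11 ± 0.11, adjusted p = 0.643). The ratio of mt-Rnr1 to mt-Rnr2 reads was 0.361, 0.330 and 0.281 in cKO and 0.379, 0.369 and 0.360 in control, with cKO replicate 1 just inside the control range.

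Transfer RNAs carry amino acids to the ribosome. Of the 22 tRNA genes, 21 passed the filter, 0 were called by edgeR or DESeq2 (1 at an unadjusted p under 0.05), 10 had a positive and 11 a negative log2 fold change. DESeq2 gave no adjusted p for some tRNAs with few reads, such as mt-Tf, mt-Ti, mt-Td and mt-Tk, so its count covers fewer tRNAs. The tRNA with no test, mt-Tv, had 2 to 7 reads per library. Their levels followed the coding strand: 7 of the 8 minus-strand tRNAs were above 40 FPKM in every library, from 49.9 FPKM upwards, with mt-Tq (at most 18.5 FPKM) as the exception, whereas 13 of the 14 plus-strand tRNAs were below it in every library, up to 26.2 FPKM, with mt-Tl1 (265 to 343 FPKM) as the exception. The 40 FPKM line was drawn after the values were seen. tRNA genes are only 59 to 75 bases long and sit within or opposite longer transcripts, so whether these reads come from free tRNAs, from precursors or from the opposite strand was not tested.

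The leucine tRNA mt-Tl1, which lies between mt-Rnr2 and mt-Nd1, and the serine tRNA mt-Ts1, which lies across the end of mt-Co1 on the opposite strand, were the most abundant tRNA rows. Their genes are shown with the anticodon in capitals, beside mt-Th, the histidine tRNA, on which replicates differed widely.
mt-Tl1: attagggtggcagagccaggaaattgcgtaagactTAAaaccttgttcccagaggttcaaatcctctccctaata
mt-Ts1: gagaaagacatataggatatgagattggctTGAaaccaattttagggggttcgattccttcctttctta
mt-Th: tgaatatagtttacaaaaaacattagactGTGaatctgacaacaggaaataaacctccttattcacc
mt-Ts1 stood at 24.6, 23.8 and 22.7 CPM in cKO and 28.4, 27.3 and 28.7 CPM in control, all cKO libraries lower, at a log2 fold change of -0.25 ± 0.08 (adjusted p = 0.124). mt-Tl1 overlapped, at 24.5, 22.6 and 26.9 CPM in cKO and 26.3, 25.4 and 29.7 CPM in control (log2 fold change -0.14 ± 0.09, adjusted p = 0.494). With the length trend removed, mt-Ts1, mt-Tl1 and the proline tRNA mt-Tp were called lower (log2 fold changes -0.52, -0.39 and -0.49; adjusted p = 0.0192, 0.0237 and 0.0376) and mt-Co3 was not.

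None of the remaining tRNAs was called by edgeR. Of those above 40 FPKM, the glutamate tRNA mt-Te had log2 fold change 0.16, the proline tRNA mt-Tp -0.22, the asparagine tRNA mt-Tn 0.0085, the alanine tRNA mt-Ta 0.06, the tyrosine tRNA mt-Ty 0.25 and the cysteine tRNA mt-Tc 0.05, none past the test (adjusted p = 0.365 to 0.983). The isoleucine tRNA mt-Ti had 18, 19 and 35 reads in cKO and 16, 17 and 17 in control, and the threonine tRNA mt-Tt 53, 53 and 49 in cKO and 30, 37 and 47 in control, both above every control library in CPM. The aspartate tRNA mt-Td, with 6, 4 and 10 reads in cKO and 14, 11 and 11 in control, lay below every control library. At these counts the differences did not pass the test (adjusted p = 0.626, 0.482 and 0.636). The histidine, serine and leucine tRNAs mt-Th, mt-Ts2 and mt-Tl2, which adjoin each other between mt-Nd4 and mt-Nd5, and mt-Tg and mt-Tr, which flank mt-Nd3, were highest in replicate 3 of both genotypes (adjusted p = 0.881 to 0.939). So were mt-Tl1, mt-Te and mt-Tw, which lie elsewhere. cKO replicate 3 was the highest cKO library for all tRNAs other than mt-Ts1, mt-Tp, mt-Tt and mt-Tk. mt-Th had 20, 14 and 82 reads in cKO replicates 1 to 3 and 25, 34 and 78 in control replicates 1 to 3, so the spread within a genotype was far wider than the difference between genotypes. The other tested tRNAs, mt-Tf, mt-Tq, mt-Tm, mt-Tw and mt-Tk, had 7 to 111 reads per library and adjusted p of 0.594 to 0.953.

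**Figure D3:**
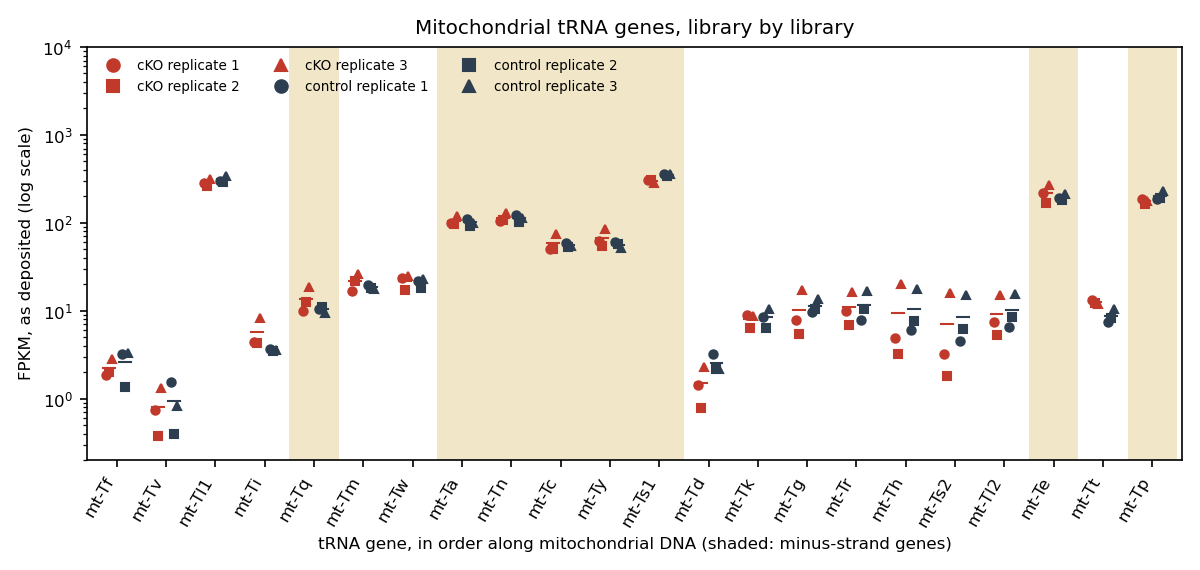
Deposited FPKM (log scale) of the 22 tRNA genes in each library, in genome order, cKO left of control, with a line at the mean of 3 libraries and minus-strand genes shaded. The shaded genes other than mt-Tq lie at 49.9 FPKM or more. The triangles (replicate 3) stand on top in both genotypes from mt-Tg to mt-Tl2 and also at mt-Tl1, mt-Tw and mt-Te.

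Subunits of the same complexes encoded in the nucleus mostly had negative log2 fold changes, and how they differ from the mitochondrial subunits was not tested. Of 81 nuclear subunits 80 were tested, 78 had a negative log2 fold change, against 49.6% of all genes tested, and their median was -0.25, against 0.0015. By edgeR 11 were called lower and 0 higher, against 1.06% of all genes tested lower, and by DESeq2 31 lower and 0 higher, against 3.19% lower. In complex I, 1 of 37 was called lower, Ndufa10 (log2 fold change -0.32, adjusted p = 0.0284), and in complex III 1 of 9, the iron-sulfur protein gene Uqcrfs1 (-0.43, adjusted p = 0.0173). In complex IV 3 of 13 tested were called lower, Cox5a, Cox6a1 and Ndufa4 (-0.33, -0.28 and -0.34), and in ATP synthase 3 of 17, the ring subunit genes Atp5g1 and Atp5g3 (-0.66 and -0.41) and Atp5e (-0.50). Complex II, which has no mitochondrial gene, had 3 of 4 called lower, Sdhb, Sdhc and Sdhd (-0.43, -0.31 and -0.25). The number of nuclear subunits called fell to 1 with reads scaled to the mitochondrial mRNA pool and to 3 with the length trend removed, and without single libraries it ran between 0 (without cKO replicate 1, control replicate 1 or control replicate 3) and 24 (without cKO replicate 3). It was 4 without cKO replicate 2 and 6 without control replicate 2.

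The balance of mitochondrial to nuclear mRNA within a library does not depend on scaling between libraries. For complex I the summed FPKM of the 7 mitochondrial over the 37 nuclear genes was 21.6, 17.3 and 19.5 in cKO replicates 1 to 3 and 15.4, 16.5 and 17.2 in control replicates 1 to 3. For complex III it was 11.9, 10.3 and 10.0 in cKO and 9.11, 10.0 and 9.40 in control, and for ATP synthase 16.9, 13.4 and 12.7 in cKO and 11.0, 11.3 and 12.5 in control. All 3 ratios were higher in every cKO library, with the nearest libraries almost touching. Complex IV overlapped, at 30.8, 27.4 and 26.8 in cKO and 25.4, 26.2 and 26.9 in control. These sums over members are descriptions, with no test, and the medians of the log2 fold changes stood at -0.02 for 7 mitochondrial and -0.24 for 37 nuclear genes of complex I, and at -0.14 for 3 mitochondrial and -0.24 for 13 nuclear genes of complex IV.

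**Figure D4:**
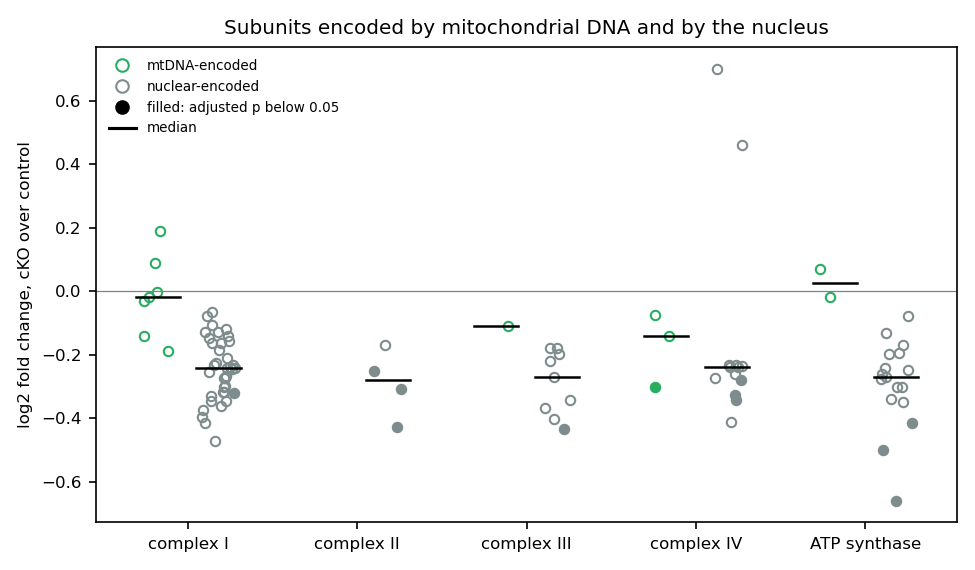
The log2 fold change (cKO over control) of each tested subunit, with mitochondrial genes (green) left of nuclear genes (grey) in each complex, filled points at an adjusted p below 0.05 and a line at the median. Nuclear medians lie between -0.24 and -0.28, while mitochondrial medians run from -0.14 in complex IV to 0.02 in ATP synthase.

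Nuclear genes that maintain, transcribe and translate mitochondrial DNA were called about as often as genes in general. Of 88 tested, 2 were called lower and 0 higher, where 2.42% of all genes tested were called, 1.06% lower (DESeq2: 3 lower, 0 higher, against 3.19% lower). A negative log2 fold change was found for 70, against 49.6% of all genes tested, and the median was -0.10, against 0.0015. Every cKO library lay below every control library for 19 of the 88, against 11.4% of all genes tested, and above for 2, against 11.1%. Those called by edgeR were Hsd17b10, a subunit of the RNase P that cuts mitochondrial tRNAs at their 5′ end (31.8, 34.5 and 36.4 CPM in cKO and 42.3, 42.3 and 44.0 CPM in control; log2 fold change -0.33, adjusted p = 0.0385), and Gars, the glycyl-tRNA synthetase of both cytosol and mitochondria (-0.31, adjusted p = 0.0393). Without any single library at most 1 of the 88 was called. Tfam, which packages mitochondrial DNA and starts its transcription, stood at 16.4, 16.6 and 15.0 CPM in cKO and 20.9, 17.2 and 18.8 CPM in control (log2 fold change -0.25 ± 0.10, adjusted p = 0.244). The RNA polymerase gene Polrmt stood at -0.07 on that scale (adjusted p = 0.692). Lrpprc and Slirp, whose products bind and stabilise mitochondrial mRNAs together, had -0.21 (adjusted p = 0.155) and -0.16 (adjusted p = 0.737).

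By role, the 9 transcription genes had 0 calls, with the elongation factor gene Tefm at -0.27 and Mterf4 at -0.25 (adjusted p = 0.399 and 0.443). The 12 genes of replication and nucleotide supply also had 0, with the pyrimidine nucleotide carrier Slc25a33 at -0.57, the exonuclease Mgme1 at -0.22 and Rnaseh1 at 0.22 (adjusted p = 0.228, 0.323 and 0.381). Among 8 RNA processing genes Hsd17b10 was the called gene, with its RNase P partner Trmt10c at -0.21 (adjusted p = 0.192) and Tbrg4, a FASTK-family RNA-binding protein gene, at -0.09 (adjusted p = 0.557). The 9 genes of stability and polyadenylation, with Fastkd2 at -0.24 and Fastk at -0.19, and the 5 of RNA decay, with the helicase gene Supv3l1 at -0.21, Rexo2 at -0.17 and Lactb2 at -0.15, had 0 calls. So did the 15 of rRNA and tRNA modification, with Mrm3 at -0.35, Pus1 at -0.14 and Cdk5rap1 at 0.28, and the 11 translation factors, with the elongation factor genes Gfm1, Tsfm and Tufm at -0.21, -0.27 and -0.14. Of 19 tRNA synthetases Gars was called, while Rars2 and Lars2 stood at -0.32 and -0.21 (adjusted p = 0.0705 and 0.225).

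Stretches of mitochondrial DNA also exist in the nuclear genome, and they bear on how the members were counted. At 95% identity or more over at least 100 bases, 11 nuclear rows on 3 chromosomes matched a mitochondrial gene, 7 of them side by side on chromosome 1 (24611535 to 24616197, minus strand, GRCm38). Gm28437 repeats 783 of the 784 bases of mt-Co3 with 100% identity. Its reads were 83264, 93709 and 87320 in cKO and 103184, 112436 and 125248 in control replicates 1 to 3, where mt-Co3 had 82852, 93771 and 87401 in cKO and 103105, 111986 and 125009 in control. The counts of the pair differed by less than 1% in every library, and Gm28437 was itself called lower (log2 fold change -0.30 ± 0.06, adjusted p = 0.0302), which is given here as no second result beside mt-Co3. From these counts, reads of the copy and of mitochondrial DNA cannot be told apart, and whether a read that matches both was counted at both or split between them is not known. The read shares, pool shares and FPKM of genes with a copy (such as mt-Co2, mt-Atp6 and mt-Co3) may therefore stand differently against others. Those without a matching row on chromosome 1 include mt-Cytb and mt-Atp8, whereas the comparison of genotypes is made within a gene. Only annotated transcripts were searched. The last 43 bases of mt-Atp8 lie in Gm10925, which repeats mt-Atp6 from its first base. Whether the rest of mt-Atp8 recurs between Gm10925 and Gm28661 was not tested.

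Of the other copies on chromosome 1, 4 also had counts close to those of their mitochondrial genes. Gm10222 over mt-Nd4l stood at 1.0003 to 1.009 reads per read across the 6 libraries, Gm28661 over mt-Co2 at 0.993 to 0.997, Gm28438 over mt-Nd3 at 0.958 to 0.996 and Gm10925 over mt-Atp6 at 1.10 to 1.12. Gm28439, which holds the first 876 bases of mt-Nd4, had 0.505 to 0.587 of its reads. Gm29216, whose match covers 483 bases of mt-Co1, had only 0.0541 to 0.0623. The log2 fold changes of these copies were 0.19, -0.07, -0.17, -0.0068, 0.08 and -0.05 in that order, none of them called. Gm28438 and mt-Nd3 differ at T3C, counted from 1 at the first base of mt-Nd3, with mt-Nd3 first, and the differing base is in capitals.
mt-Nd3: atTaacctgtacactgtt
Gm28438: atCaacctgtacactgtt
The 7 copies together took 0.877% to 1.005% of all reads in cKO and 0.896% to 1.04% in control libraries. The copies elsewhere, Gm13339, Gm13340 and Gm13341 on chromosome 2 and Gm4076 on chromosome 13, matched at 95.2% to 97.6% and had at most 0.00693 reads per read on their mitochondrial gene. Their log2 fold changes were -0.02, -0.03, 0.24 and 0.43, none called.

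**Figure D5:**
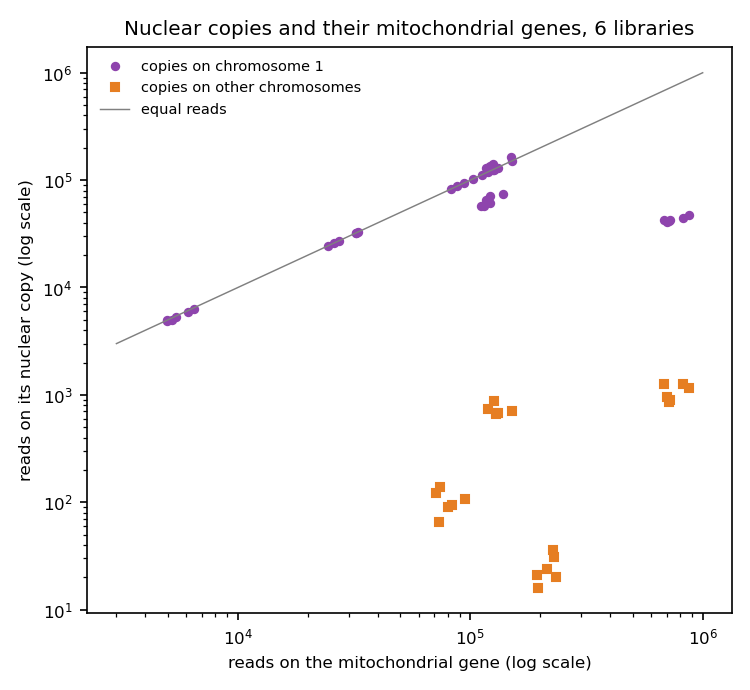
Reads on each nuclear copy against reads on its mitochondrial gene in the 6 libraries (both axes on a log scale, cKO and control together), with a line of equal reads. Of the 7 copies on chromosome 1 (circles) 4 lie on the line, Gm10925 lies slightly above it, and Gm28439 and Gm29216 lie under it and the 4 copies on other chromosomes (squares) far under it.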

How the data were processed

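Members are all rows of chromosome MT; these, the gene lists and the tests were chosen with earlier results of these data known. The deposited files hold read counts per gene and the FPKM that the authors derived from them, per the file headers; cutadapt 1.9 and mm10 are named in the submitters' processing notes, and aligner, counter and strand setting are not stated in the sources at hand. FPKM were used as deposited. Counts were tested with edgeR 4.0.16 (R 4.3.3): filterByExpr (minimum count 10, minimum total 15), TMM, robust quasi-likelihood F test of genotype over 3 cKO and 3 control libraries, Benjamini-Hochberg adjustment over all 16843 genes, calls at 0.05. The SE is the log2 fold change divided by the square root of F. The procedure was tested on simulated data. Alternatives were DESeq2 1.42.0, limma-voom 3.58.1, other scalings and filters, removal of a length trend (loess span 0.5), a replicate block and leaving out each library. Nuclear copies were found with blastn 2.17.0 against GENCODE M21 transcripts. Named genes are all members except the untested tRNA, which is also given, the copies, and per nuclear list at most 3 genes by smallest raw p, besides Tfam, Polrmt, Lrpprc, Slirp and Slc11a2.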

Additional observations from a re-analysis of the deposited data

How the results depend on the processing

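The share of mitochondrial reads (difference of cKO minus control -0.256 to -0.0027 percentage points over its alternatives) and the summed mRNA level (log2 ratio -0.125 to -0.0320) stayed negative and moved by less than 1 SD between replicates; the median of the 13 mRNAs did as well but changed sign, from -0.11 to 0.053. Genes called in all, 407, became 874 with DESeq2, 673 with the replicate block and 59 to 624 without single libraries. Mitochondrial genes called, 1, became 0 with scaling to the mt mRNA pool, 2 without a filter, 2 with at least 1 CPM in 3 libraries, 2 with DESeq2, 3 with the length trend removed, 2 with the replicate block and 0 to 1 without single libraries. Nuclear respiratory chain subunits called, 11, became 1 with the pool scaling, 31 with DESeq2, 3 with the length trend removed, 23 with the replicate block and 0 to 24 without single libraries; of the genes of mtDNA expression, 2 became 0 with library totals only, 0 with the pool scaling, 0 with the length trend removed and 0 to 1 without single libraries. The cause of these shifts was not tested. Deviations of same-numbered libraries correlated at -0.077, 0.049 and 0.26 over 9440 genes. Of the 3 cKO libraries replicate 3 alone correlated best with its own number. Pairing by number was thus not shown for replicates 1 and 2, and with 3 libraries per genotype this check cannot decide whether libraries were paired. With the block mt-Co3 stood at -0.30 (edgeR adjusted p = 0.0174) and mt-Rnr1 at -0.32 (edgeR adjusted p = 0.0100). mt-Co3 was called in 9 of 16 alternatives (adjusted p 8.84e-05 to 0.400). No scaling moved the median of all genes by more than 0.1.

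Single genes whose log2 fold change turned its sign were not called in either setting, and the cause was not tested. With the length trend removed these were mt-Tm -0.084, mt-Nd2 0.11, mt-Tw -0.22, mt-Ta -0.23, mt-Tn -0.27, mt-Tc -0.25, mt-Ty -0.056, mt-Co2 0.041, mt-Atp6 0.098, mt-Nd4 0.086, mt-Nd6 0.10, mt-Te -0.13, mt-Cytb 0.013, Gm10925 0.11, Gm29216 0.050 and Gm28661 0.042. With the pool scaling they were mt-Nd2 0.067, mt-Co2 0.0083, mt-Tk 0.013, mt-Atp6 0.065, mt-Nd4 0.051, mt-Nd6 0.077, Polrmt 0.011, Gm10925 0.078, Gm29216 0.034 and Gm28661 0.0098, and with library totals only mt-Nd2 0.0096, mt-Atp6 0.0091, mt-Nd6 0.028 and Gm10925 0.022. mt-Nd6 stood at 0.0018 with DESeq2's size factors, 0.0018 with DESeq2, 0.0029 with scaling without chromosome MT and 0.014 with at least 1 CPM in 3 libraries, where Gm10925 stood at 0.0078. Without single libraries the range was -0.074 to 0.076 for mt-Nd2, -0.042 to 0.21 for mt-Tw, -0.042 to 0.13 for mt-Ta, -0.10 to 0.069 for mt-Tn, -0.17 to 0.16 for mt-Tc, -0.24 to 0.10 for mt-Tk, -0.036 to 0.17 for mt-Atp8, -0.080 to 0.072 for mt-Atp6, -0.74 to 0.16 for mt-Tg, -0.49 to 0.25 for mt-Tr, -0.10 to 0.038 for mt-Nd4, -1.33 to 0.44 for mt-Th, -1.71 to 0.34 for mt-Ts2, -0.68 to 0.30 for mt-Tl2, -0.11 to 0.096 for mt-Nd6, -0.030 to 0.32 for mt-Te, -0.34 to 0.032 for Slirp, -0.036 to 0.20 for Gm28439 and -0.069 to 0.083 for Gm10925.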
